A study of Mus musculus with 6 samples.

Results

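The promoter regions described here were called open in 1 or 2 of 3 dissected parts of the mouse embryonic face and in no library of the remaining part or parts. They were chosen from the open chromatin calls themselves. Peaks of all 6 libraries were merged wherever they overlapped by at least 1 bp, a merged region was taken as a promoter region when its strongest summit lay within 1 kb of the start site of a protein-coding transcript, and a member had to be called in both libraries of each label that had it and in no other library. Of 382006 merged regions, 31574 were promoter regions and 1244 of these were members (3.94%), nearest to 1166 genes. Because calls chose the members, their numbers, their call strengths and their widths are descriptions and carry no test.

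The study profiled open chromatin by ATAC-seq, in which a transposase inserts sequencing adapters where DNA is accessible, in nuclei of freshly dissected wild-type (WT) face tissue of mixed cell type at E11.5. There were 2 libraries labelled maxillary process (Mx, the upper jaw primordium), 2 labelled mandibular process (Md, the lower jaw primordium) and 2 labelled nose. Nothing in the labels says whether both libraries of a part derive from different embryos. For the 4 jaw libraries, the names of the peak lists carry the abbreviation of the other jaw process, so Mx and Md below mean the sample labels and their assignment remains uncertain. Promoter calls did not settle it: of 53 genes known for the lower jaw, the upper jaw, the frontonasal mesenchyme or the nasal epithelium, 46 had a promoter region called in all 6 libraries.

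A promoter is the stretch of DNA around a transcription start site where the general transcription machinery assembles. Promoters of genes used by most cells usually lie in CpG islands, stretches rich in G, C and the CpG dinucleotide, and are open in nearly every tissue. Promoters of genes restricted to certain cell types are more often poor in CpG and open mainly where the gene is used, while much of the difference between parts of the embryo is carried by enhancers far from the start sites. Close to an open promoter, weaker open stretches can also be called in its flanks and in the first intron.

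Only a minority of the members lay on the start site of a gene that had no constantly open promoter, a term used here for a promoter region called in all 6 libraries. In 113 members (9.08%, Wilson 95% interval 7.61 to 10.8%) the region held its nearest start site, the gene had no promoter region called in all 6 libraries and no start site of the gene lay inside a region called in all 6. The same held for 715 of the inconsistently called promoter regions (5.67%, interval 5.28 to 6.09%), those called in 1 of the 2 libraries of some label, and for 828 (2.62%) of all promoter regions, where those called in all 6 cannot meet the definition. Such members are called start-site members below, and the definition was made after the values were seen. The following 8, from 5 of the 6 classes, are shown as examples of a start site that was itself called in some labels and not in others. They were picked by hand for the known roles of their genes after the values were seen, not by rank, and do not stand for the 113. Each line gives 170 bases before the start site and the first 30 bases of the transcript on the gene's strand, from the RefSeq sequence of GRCm38 (mm10), so that the start site is base 171. Capitals mark matches to a list of 22 short motifs searched on both strands.

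Chrng (chr1:87205641-87205840, plus strand): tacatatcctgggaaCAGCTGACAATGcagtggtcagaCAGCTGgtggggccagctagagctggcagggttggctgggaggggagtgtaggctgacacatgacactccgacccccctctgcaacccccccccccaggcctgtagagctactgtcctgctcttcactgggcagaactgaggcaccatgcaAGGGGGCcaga
Ttn (chr2:76982518-76982717, minus strand): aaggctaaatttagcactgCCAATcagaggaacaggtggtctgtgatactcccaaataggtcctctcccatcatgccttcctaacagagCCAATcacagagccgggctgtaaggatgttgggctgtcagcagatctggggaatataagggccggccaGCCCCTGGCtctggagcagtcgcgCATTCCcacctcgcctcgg
Tnmd (chrX:133850810-133851009, plus strand): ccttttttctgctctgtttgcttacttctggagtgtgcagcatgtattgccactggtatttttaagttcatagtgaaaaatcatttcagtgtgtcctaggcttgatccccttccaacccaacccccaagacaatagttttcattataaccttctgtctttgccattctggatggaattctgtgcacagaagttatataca
C2cd4d (chr3:94362268-94362467, plus strand): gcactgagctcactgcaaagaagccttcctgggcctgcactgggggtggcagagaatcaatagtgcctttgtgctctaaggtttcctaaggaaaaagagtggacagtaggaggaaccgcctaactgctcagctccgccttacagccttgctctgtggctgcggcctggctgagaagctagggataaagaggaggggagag
Ckmt2 (chr13:91876856-91877055, minus strand): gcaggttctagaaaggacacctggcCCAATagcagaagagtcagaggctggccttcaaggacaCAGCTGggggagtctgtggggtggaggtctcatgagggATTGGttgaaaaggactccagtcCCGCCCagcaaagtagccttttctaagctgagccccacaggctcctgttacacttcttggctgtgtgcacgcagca
Gnat3 (chr5:17962379-17962578, plus strand): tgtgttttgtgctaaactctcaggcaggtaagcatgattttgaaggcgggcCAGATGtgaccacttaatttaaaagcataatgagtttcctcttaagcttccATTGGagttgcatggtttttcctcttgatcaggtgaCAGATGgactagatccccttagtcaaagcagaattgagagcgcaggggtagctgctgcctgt
Tie1 (chr4:118490032-118490231, minus strand): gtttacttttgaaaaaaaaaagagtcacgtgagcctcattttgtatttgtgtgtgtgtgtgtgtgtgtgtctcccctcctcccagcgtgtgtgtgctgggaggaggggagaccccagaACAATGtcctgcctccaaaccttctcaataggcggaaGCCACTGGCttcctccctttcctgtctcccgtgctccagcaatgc
Slc45a1 (chr4:150652145-150652344, minus strand): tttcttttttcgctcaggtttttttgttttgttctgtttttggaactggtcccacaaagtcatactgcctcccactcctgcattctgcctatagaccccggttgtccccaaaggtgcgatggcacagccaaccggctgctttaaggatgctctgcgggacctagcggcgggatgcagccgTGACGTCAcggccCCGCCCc

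The Chrng window, at the gene of the gamma subunit of the fetal muscle acetylcholine receptor, held 2 matches to the myogenic E-box CAGCTG, a SOX site (ACAATG) and a CTCF core (AGGGGGC) within the transcript. The Ttn window, at the gene of the giant sarcomere protein titin, held 2 CCAAT boxes, a TEAD site (GGAATG) and a TFAP2 site (GCCNNNGGC). Ckmt2, which encodes the mitochondrial creatine kinase of striated muscle, had 2 CCAAT boxes, a GC box (GGGCGG) and 1 myogenic E-box. The window of Gnat3, which encodes the taste G protein subunit gustducin, held 2 matches to CAGATG, an E-box bound by neurogenic factors, and 1 CCAAT box. The window of Tie1, a receptor kinase of endothelial cells, held a SOX site and a TFAP2 site, and Slc45a1, a sugar transporter gene, had a cAMP response element (TGACGTCA) and a GC box. No motif of the list was found in the windows of Tnmd, the tendon gene tenomodulin, and C2cd4d.

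Most of these motifs are common around start sites. Of the same window at all 41438 start sites, 41.0% held a GC box, 29.0% a CCAAT box, 14.8% a TFAP2 site, 10.7% a myogenic E-box, 9.84% a CTCF core and 9.58% the neurogenic E-box. A TEAD site was in 8.67%, a SOX site in 6.99% and a cAMP response element in 2.04%. Among the 113 start-site members, 29 held a GC box (25.7%, interval 18.5 to 34.4%) and 23 a myogenic E-box (20.4%, interval 14.0 to 28.7%). An ETS site (CCGGAAG) was in 2.65% of them against 9.43% of all start sites, and an NRF1 motif (TGCGCA) in 1.77% against 7.71%. The motifs given for these members were picked out of 22 after their values were seen. The myogenic E-box was in 6 of 16 windows of Mx only, 4 of 17 of Mx and Nose, 6 of 30 of Nose only, 3 of 15 of Mx and Md, 3 of 23 of Md only and 1 of 12 of Md and Nose. A match is a run of letters and does not show that a factor was bound.

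The members were unevenly spread over the 6 classes. Of all promoter regions, 345 (1.09%) were called in Md only, 338 (1.07%) in Nose only and 142 (0.45%) in Mx only. Among pairs of labels, 204 (0.646%) were called in Md and Nose, more than in Mx only, 112 (0.355%) in Mx and Md and 103 (0.326%) in Mx and Nose. In tissue of mixed cell type, an open promoter in few cells and a weakly open one in many cannot be told apart. By comparison, 17717 promoter regions were called in all 6 libraries and 12613 were called inconsistently.

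The class sizes depended on how far down each list went. Each peak carries a −log10 q, the strength of the call after correction for multiple testing, and a list ends at some lowest value. The Mx replicate 2 list ended at a −log10 q of 2.55 and the Md replicate 1 list at 1.62, while the other 4 ended at 1.3. The Mx replicate 1 list was the shortest, with 219779 lines and 20821 promoter regions against 22934 to 23911 in the other 5 libraries. When all lists were limited to a −log10 q of at least 2.55, Nose only fell to 129 regions, Md only to 213 and Md and Nose to 65, whereas Mx and Md came to 133. When each list was limited to its best 219779 peaks, 380 of the 1244 members (30.5%) overlapped a member of the same class, and these were 39.3% of the 967 members of that setting.

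Membership also lay close to the limit of detection. Of the 2700 promoter regions called in exactly 2 libraries, 825 were members and 1875 were called by libraries of 2 different labels. Of the 1568 called in exactly 4 libraries, 419 were members. For each class more regions missed membership by 1 library than passed: beside the 338 of Nose only stood 2130 regions called in a single nose library alone and 490 called in both nose libraries and in 1 library of another label. For Md and Nose, 989 promoter regions had 1 additional Mx library, against 204 members.

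**Figure D1:**
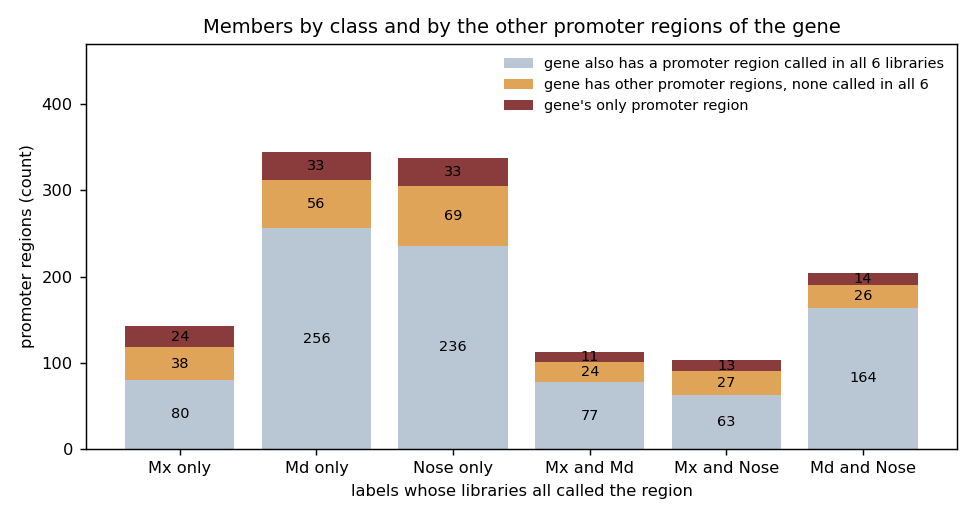
Number of members (y axis) in each of the 6 classes (x axis), split by the other promoter regions of the same gene. Genes that also have a promoter region called in all 6 libraries make up the largest block of every class, from 80 of 142 (56.3%) in Mx only to 164 of 204 (80.4%) in Md and Nose.

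Most members belonged to genes that had a further promoter region open throughout. For 876 members (70.4%, interval 67.8 to 72.9%) the same gene had another promoter region called in all 6 libraries. For 240 (19.3%) the gene had other promoter regions but none called in all 6, and 128 (10.3%, interval 8.72 to 12.1%) were the only promoter region of their gene. The inconsistently called promoter regions had 14.7% and 8.94% for these 2 shares. Over all promoter regions, 19.6% were the only one of their gene. In 11 of the 128, among them Ube3b, Kif1c and Pign, the start site nevertheless lay inside a region called in all 6 libraries. That region was not counted as a promoter region of the gene. The share with a constantly open promoter ran from 56.3% in Mx only (interval 48.1 to 64.2%) to 80.4% in Md and Nose (interval 74.4 to 85.3%), and these 2 intervals do not overlap. Among the inconsistently called promoter regions it was 76.4%. Over all promoter regions it was 58.4%, which is not a like measure. Those called in all 6 counted only when their gene had another such region, and their share was 44.7%. Regions are not biological replicates, and all intervals cover counting error only.

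The members lay beside start sites more often than on them. Their summits were at a median of 482 bp from the nearest start site, against 85 bp for the promoter regions called in all 6 and 486 bp for those called inconsistently. The start site was within the region in 15.5% of members (interval 13.6 to 17.6%) in 76.0% of the promoter regions called in all 6 and in 10.1% of the inconsistent (interval 9.56 to 10.6%). In 50.0% of members (622 regions) and 61.4% of the inconsistent the nearest start site lay in a region called in all 6. The median distance to the nearest summit of such a promoter region was 891 bp for members and 731 bp for the inconsistent. The summit fell in an intron in 51.1% of members against 28.3% of the promoter regions called in all 6, and in an annotated UTR in 12.3% against 30.6%. The inconsistent regions, with 53.6% and 9.89%, were near the members.

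**Figure D2:**
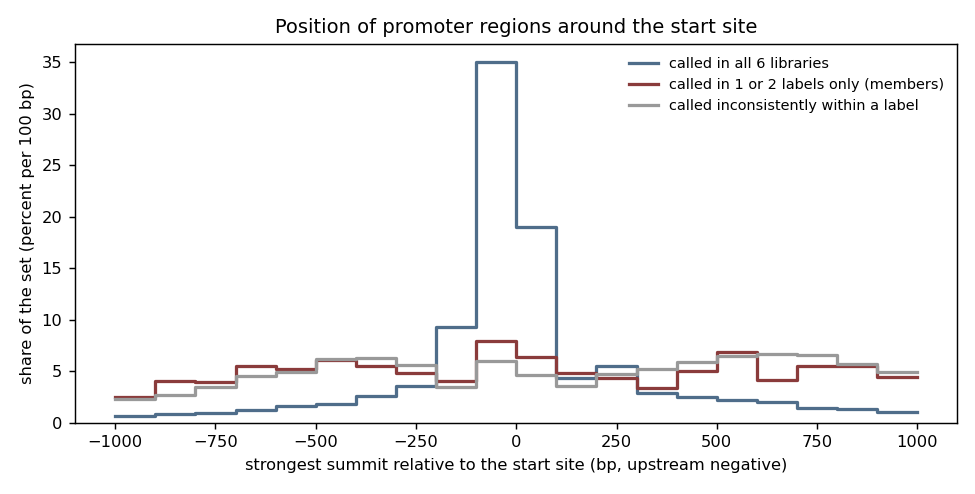
Share of each set of promoter regions (y axis, percent per 100 bp) by the position of the strongest summit relative to the nearest start site (x axis, bp). The regions called in all 6 libraries peak at the start site, with 35.0% in the 100 bp before it, while the bins of the members hold 2.49 to 7.96%, most just before the start site, and those of the inconsistently called regions 2.32 to 6.64%.

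Members and excluded regions met closely at the 1 kb limit. Just inside it were members at Slco4c1 (996 bp), Hapln3 (998 bp) and Htr7 (999 bp). A region called in Nose only at Slc2a9 (1001 bp) and regions called in Md only at Rai14 (1001 bp) and Sox21 (1003 bp) were left out. Limiting promoters to 0.5 kb kept 652 of the 1244 members.

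Members were narrow and weakly called, and both measures come from the same calls that chose them. Their median width was 168 bp against 822 bp for the promoter regions called in all 6 and 119 bp for those called inconsistently. The weakest call of a member had a median −log10 q of 2.01 against 16.1 and, for the inconsistent, 2.13. It was under 3 in 85.6% of members, 80.0% of the inconsistent and 11.8% of the promoter regions called in all 6. Many calls shared 1 value: in each library between 7.72 and 15.7% of its members sat at the commonest −log10 q, a value held there by 0.152 to 0.875% of the promoter regions called in all 6. Just 23 members, all of a single label, had a −log10 q of at least 5 in every library that called them. A member of a pair of labels had to reach that value in 4 libraries, a member of a single label in 2.

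**Figure D3:**
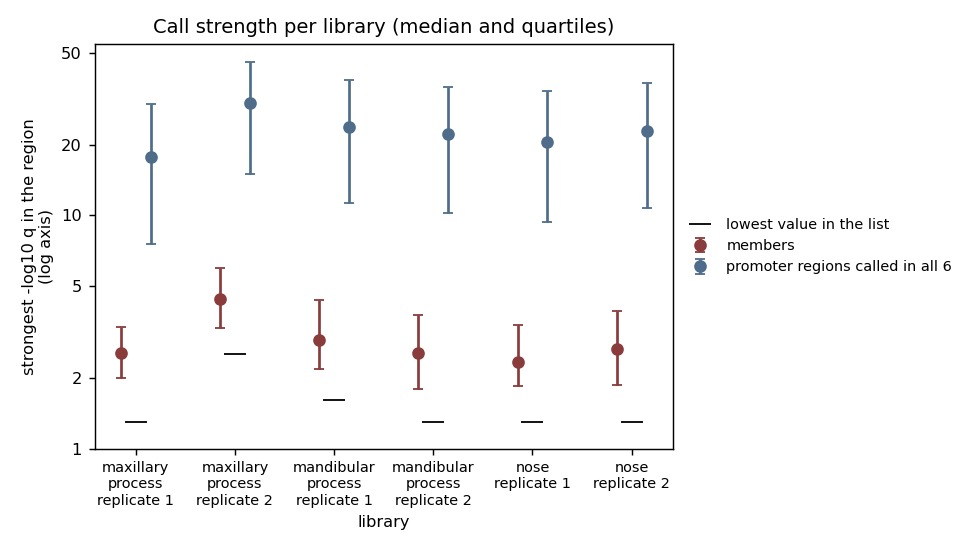
Median and quartiles of the strongest −log10 q per region (y axis, log scale) in each library (x axis), for members and for promoter regions called in all 6, with the lowest value of each list as a dash. Members have medians of 2.36 to 4.37 and lie close to the end of every list, while the regions called in all 6 have medians of 17.8 to 30.4.

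Ranked by the weaker call within its list, the first 3 members belonged to the single labels. By the strongest call the pairs were higher, with a median −log10 q of 5.09 against 3.29. A pair of labels takes its weakest and strongest from 4 calls and a single label from 2. Both orders follow in part from these counts. A Nose-only region 365 bp upstream of Gm28710 was the only promoter region of that gene and had −log10 q values of 25.5 and 19.95 in the 2 nose libraries. A Md-only region of Zfp366, in an intron 860 bp past a start site of this zinc finger gene, had 14.5 and 21.5 in the Md libraries. The strongest of Mx only, 901 bp into Tnni1, which encodes the troponin I of slow skeletal muscle, had 8.39 and 15.7. These 3 regions were 424 to 646 bp wide, and none held a start site.

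At genes with a constantly open promoter, the best ranked members lay in its surroundings or at another start. The Nose-only region of Gas2, a growth arrest gene, had its summit in an intron, 386 bp past an alternative start that it held, with −log10 q values of 15.1 and 8.61. At Sgpp2, which encodes a sphingosine-1-phosphate phosphatase, a Nose-only region lay 875 bp upstream with values of 7.46 and 13.3, and the start site itself was in a region called in all 6, 809 bp away. The Md-only region of Tph2, the tryptophan hydroxylase of serotonin neurons, lay 848 bp upstream of a start site that was called in all 6, with values of 6.52 and 7.94. At Sgpp2 and Tph2 the nearest start site itself was thus called in every library, whereas the nearest such promoter summit at Gas2 was 9032 bp away.

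A few genes had members of different classes side by side. Of the 1166 genes, 72 had 2 members and 3 (Ankrd34c, Tfpi and Ank3) had 3. The members of Ankrd34c, all in GRCm38 on chr9, were an Mx-only region at 89737695-89737770, a Md-only region at 89738100-89738246 and a Nose-only region at 89738388-89738723. Their −log10 q values were 2.01 and 3.29 in Mx, 2.61 and 2.58 in Md, and 5.26 and 1.85 in the nose libraries, and the nearest promoter summit called in all 6 was 256 bp from the Mx-only summit. Tfpi, an inhibitor of the tissue factor pathway of coagulation, had members of Mx only, Md only and Mx and Nose, each with a −log10 q under 3 in at least 1 of the libraries that called it. At this gene and at Ank3, the gene of the membrane adaptor ankyrin-G, 2 of the 3 members were nearest to the same start site and the third to a different one.

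The genes of the 113 start-site members were of many kinds, and those named here were chosen after their values were seen, so they show no theme. In Mx only, 16 regions were of this kind. The Chrng region, 431 bp wide with its summit 111 bp upstream, had −log10 q values of 4.58 and 3.29, and the Ttn region had 2.92 and 3.75. Musk, the receptor kinase of the neuromuscular junction, had 2.92 and 3.29, and Cacng1, a subunit of the calcium channel of skeletal muscle, had 3.91 and 3.29. The Mx-only list also held the start of Foxs1, a forkhead factor gene, with 3.77 and 9.05, and that of Casp12, an inflammatory caspase gene, with 2.92 and 8.60. The starts of 3 olfactory receptor genes were in this class too, Olfr685 with 3.91 and 4.92, Olfr578 with 2.01 and 11.7 and Olfr187 with 2.01 and 3.29. By the definition of the class, none of these 9 regions had a call in any Md or nose library. The weaker of both values was under 5 in every one.

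Md only had 23 start-site members and Nose only had 30. The Tnmd region was the only promoter region of the tendon gene, with −log10 q values of 5.87 and 3.08 in the Md libraries, and that of Gabra6, a GABA receptor subunit, had 3.44 and 3.41. The start of Ihh, the Indian hedgehog ligand of growing cartilage, had 2.40 and 3.41. In the nose libraries, C2cd4d had 5.87 and 11.4 over 539 bp, and the starts of 3 immune genes were called, Clec12a, a lectin of myeloid cells, with 7.04 and 8.34, Il18rap with 4.98 and 5.29 and Il18r1 with 4.01 and 3.47, the last pair encoding subunits of the interleukin-18 receptor. Nose only held muscle genes as well, Ckmt2 with 3.62 and 5.09 and Ldb3, of the sarcomere Z-disc, with 3.46 and 1.71. Of these, Clec12a and C2cd4d were the ones with a value above 5 in both libraries.

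The pairs of labels held 44 start-site members. In Mx and Md, Gnat3 had −log10 q values of 7.20, 6.70, 6.23 and 3.41 in Mx replicates 1 and 2 and Md replicates 1 and 2. In Mx and Nose, Cxcl13, the chemokine gene that attracts B cells, had 2.92 and 8.07 in Mx and 3.08 and 6.10 in the nose libraries. In Md and Nose, the start of Cxcr3, a chemokine receptor of lymphocytes, had 6.23, 4.30, 11.504 and 14.5, that of Slc45a1 had 5.26, 4.30, 4.98 and 4.36, and that of Tie1 had 2.61, 2.58, 2.24 and 2.63. Tie1 was thus at the weak end in all 4 libraries, and of these 3 the Cxcr3 start had the highest values in the nose libraries.

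The DNA under the members was poor in CpG. Within 250 bp on either side of the strongest summit, the ratio of observed to expected CpG had a median of 0.361 in members, 0.748 in the promoter regions called in all 6 and 0.401 in those called inconsistently. An island-like window, with over 50% G and C and a ratio over 0.6, was found in 15.6% of members (interval 13.7 to 17.7%) against 69.3% and 17.3%. The classes differed among themselves. Mx and Md had island-like windows in 32.1% (interval 24.2 to 41.3%) and Md and Nose in 22.1% (interval 16.9 to 28.2%), and these intervals overlap. Md only had them in 15.1% and Mx only in 11.3%. The lowest shares were 9.71% in Mx and Nose (interval 5.36 to 17.0%) and 10.4% in Nose only (interval 7.54 to 14.1%). Of the start-site members, 18 of 113 had an island-like window, 8 of them in Mx and Md.

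**Figure D4:**
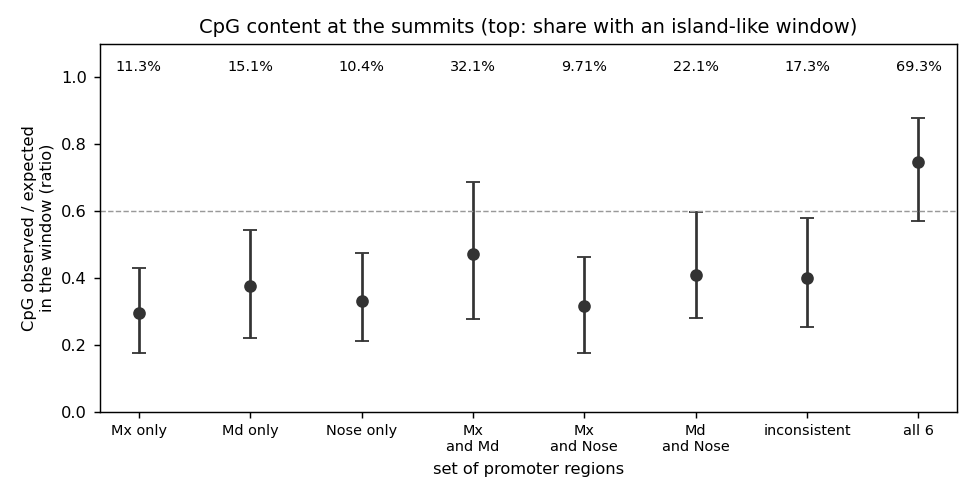
Median and quartiles of the CpG ratio within 250 bp on either side of the summit (y axis) for each class, for promoter regions called inconsistently and for those called in all 6 (x axis), with the share of island-like windows above. The medians of all 6 classes lie below the 0.6 line and below that of the regions called in all 6, but the upper quartiles of Mx and Md (0.687) and Md and Nose (0.596) pass the lower quartile of the latter (0.571).

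Motif matches within 100 bp on either side of the summits followed the same division. A GC box was in 15.8% of members (interval 13.8 to 17.9%) against 56.2% of the promoter regions called in all 6, an ETS site (CCGGAAG) in 1.61% against 11.1%, and an NRF1 motif (TGCGCA) in 2.25% against 9.68%. Motifs that are rich in A and T were more frequent in members, with a TATA box (TATAAA) in 6.99% against 2.97% and a GATA site (AGATAA) in 7.80% against 2.47%. For all of these, the share in members was near that of the inconsistently called promoter regions, where they were 14.5%, 2.16%, 2.39%, 6.68% and 7.10%. An AP-1 site (TGANTCA) was in 6.99% of members (interval 5.70 to 8.55%), 4.76% of the inconsistent (interval 4.40 to 5.14%) and 2.59% of the regions called in all 6.

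The myogenic E-box was most frequent in the 3 classes that include the libraries labelled Mx. It was found in 21.1% of Mx only (interval 15.2 to 28.6%), 22.3% of Mx and Md (interval 15.6 to 30.9%) and 21.4% of Mx and Nose (interval 14.5 to 30.2%). In Md only it was in 11.0% (interval 8.13 to 14.8%), in Nose only in 14.2% (interval 10.9 to 18.3%) and in Md and Nose in 8.33% (interval 5.27 to 12.9%), beside 12.1% over all promoter regions. The intervals of the Mx classes overlap that of Nose only. The TEAD site had another order, with 15.1% in Nose only (interval 11.7 to 19.3%), 6.34% in Mx only and 8.91% over all promoter regions. The TFAP2 site was in 22.3% of Mx and Md (interval 15.6 to 30.9%) and in 7.77 to 10.4% of the other 5 classes. It was in 15.5% of all promoter regions, 20.2% of those called in all 6 and 9.20% of the inconsistent, so the interval of Mx and Md holds the share of the regions called in all 6. These motifs were picked out of 22 and 6 classes after their values were seen.

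Distal regions of the matching label were not much more frequent near members than near other promoters. A region over 1 kb from any start site and called in the nose libraries alone lay within 100 kb of 53.8% of Nose-only members (interval 48.5 to 59.1%) and of 43.3% of promoter regions called in all 6. The corresponding shares were 40.8% (interval 33.1 to 49.1%) against 36.2% for Mx, and 47.5% (interval 42.3 to 52.8%) against 48.5% for Md. Only the nose interval lay above the share of the promoter regions called in all 6, and the distal regions came from the same lists as the members. Promoters made up 1.95 to 4.46% of all merged regions of the 6 classes and 25.3% of all merged regions called in all 6.

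Genes of 19 lists of cell types, tissues and signals of the face had 41 members of 557 promoter regions (7.36%, against 3.94% over all promoter regions), at 37 of 206 genes. Regions called in all 6 cannot be members. They were 199 of these 557 against 56.1% of all promoter regions, so the 2 shares are not alike in their base. The muscle list had the highest count, with 8 members of 36 promoter regions, 1 each at Actc1, Pax7, Myf5, Myod1, Tbx1, Tcf21, Tnnt1 and Lbx1. They were divided among all 6 classes. No member lay at the surface and oral epithelium list (36 promoter regions) or the list of Schwann cell precursors and melanoblasts (17 promoter regions). At the share of 3.94% over all promoter regions, lists this short would hold few members or none. The keratin family had 3 members of 51 promoter regions (5.88%), none of them at a gene of the epithelium list. Blood and macrophages had 2 of 12 and endothelium 3 of 20, and the parts these cell types play in the calls were not tested.

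Among the muscle genes, Actc1, the actin of heart and early skeletal muscle, was called in Mx only, 85 bp upstream of a start site, with −log10 q values of 2.63 and 5.25. Myod1, the myogenic master factor, had a Mx and Md region 63 bp upstream with 2.48, 2.73, 2.31 and 1.85, besides a promoter region called in all 6 at a distance of 800 bp. Tnnt1, the troponin T of slow muscle, was called in Mx and Nose with 3.15, 4.03, 2.17 and 6.12. Pax7, a factor of muscle progenitors and of neural crest, was called in Md only with 1.69 and 2.20, and Myf5, another myogenic factor, in Nose only with 3.05 and 2.07. These 5 regions belonged to 5 different classes. Of the other members of the muscle list, Tbx1 was in Mx and Md, Tcf21 in Mx and Nose and Lbx1 in Md and Nose. The whole list thus had 2 members each in Mx and Md and in Mx and Nose.

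The lists of the jaws, the first arch, the frontonasal mesenchyme and the nasal epithelium had 14 members, each at a different gene. Of these, 10 lay past the start site and 10 were at genes with a promoter region called in all 6. Alx1 and Alx4, homeodomain factors of the frontonasal mesenchyme, had Mx and Md regions 584 and 492 bp past a start site that lay in a region called in all 6. Their −log10 q values were 3.99, 6.83, 2.34 and 3.57 for Alx1 and 4.29, 11.8, 6.36 and 3.90 for Alx4. Lhx2, a factor of the olfactory epithelium and forebrain, also had a Mx and Md region, 897 bp past a start, with 3.96, 12.6, 7.90 and 7.21. Otx2, a factor of the nasal placode and forebrain, had a Md-only region 609 bp upstream of a start with 3.33 and 1.31. These 4 genes also had a promoter region called in all 6, whereas Tfap2b, a neural crest factor with a Mx-only region (2.14 and 6.84), and Pax7 did not. Of the 8 members of the frontonasal and nasal epithelium lists, 6 were called in no nose library, as were 8 of all 14. Of the 1244 members of all classes, 645 were called in the nose libraries.

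The other factors followed no single pattern. Lhx8 had a Nose-only region in an intron with −log10 q values of 3.78 and 3.41, and Lhx6, like Lhx8 a factor of the first arch, a Mx and Nose region with 1.49, 4.98, 6.85 and 5.76. Foxf2, a lower jaw factor, had a Md-only region in its coding exon with 6.22 and 1.59. Sp8 and Emx2, factors of the nasal placode and forebrain, had Md and Nose regions, Sp8 with 3.11, 2.75, 4.01 and 5.76 and Emx2 with 4.01, 6.52, 3.77 and 2.27. These 5 genes and Osr1, a factor gene with a Nose-only region of 1.94 and 2.94, also had a promoter region called in all 6 libraries. Shox2, a factor of the palate, with a Md and Nose region of 3.32, 3.41, 1.39 and 2.66, had other promoter regions but none called in all 6. The same was true of Tbx1, a factor of the pharyngeal arches, whose Mx and Md region had values from 1.64 to 3.29.

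Receptors and ligands were few. Ptch1, the hedgehog receptor, had a Md and Nose region 416 bp upstream of a start with −log10 q values of 6.50, 4.27, 4.46 and 5.81. Fgf9, an FGF ligand, had a Mx-only region with 2.40 and 3.11 and a Md-only region at another start with 2.60 and 2.20. Pdgfra, the receptor of PDGF in facial mesenchyme, had a Mx and Md region 891 bp and a Md and Nose region 145 bp upstream of different starts. Outside these, the Md-only region of Ptprc, the leukocyte marker CD45, had 12.4 and 5.23, 647 bp upstream of the gene and its only promoter region.

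**Figure D5:**
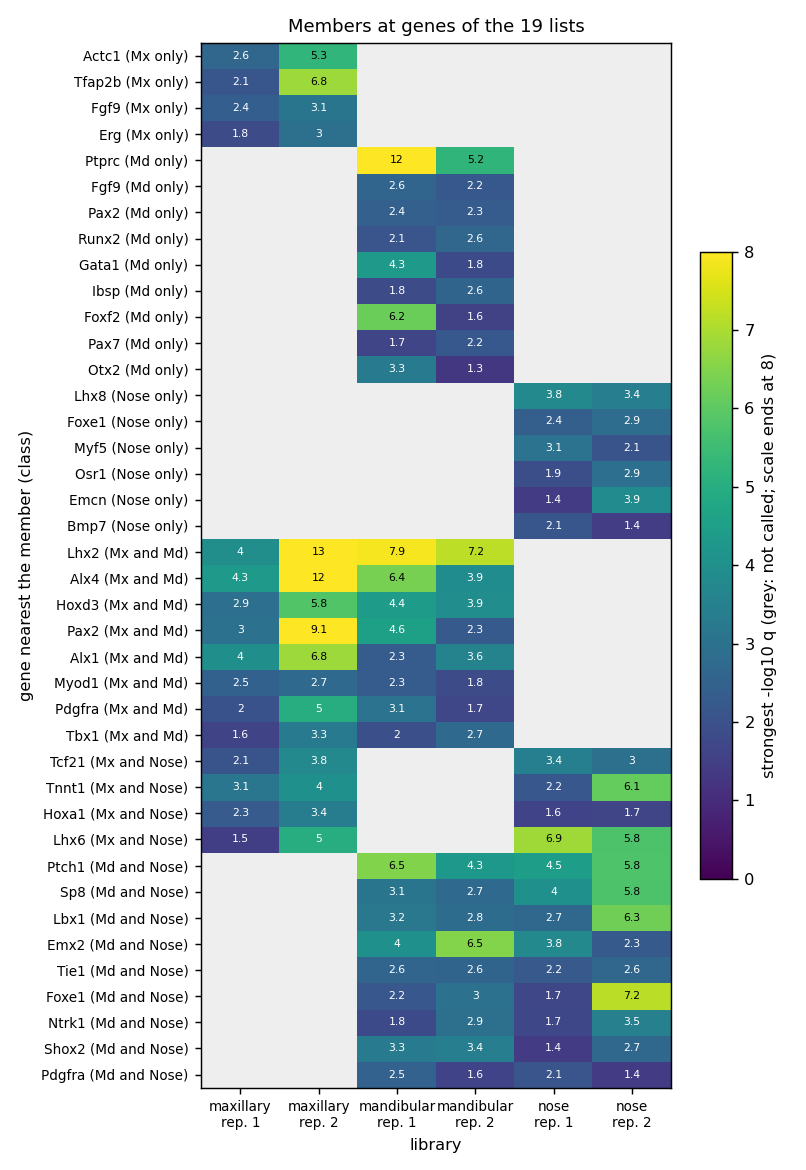
Strongest −log10 q (colour and number) of 40 of the 41 members at genes of the 19 lists (y axis, with the class) in each library (x axis), grey where no peak was listed. Most values are under 5, and the blocks follow from the choice of members by their calls.

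Gene families differed in how often their promoter regions were members. Olfactory receptor genes, each expressed in few olfactory neurons, had 24 members of 150 promoter regions (16%), of which 7 were start-site members and none had an island-like window. Of the 24, 9 were in Md only, 6 in Mx only and 1 in Mx and Md, so 16 were called in no nose library, and Nose only had 3. Of all 1244 members, 645 were called in the nose libraries and 338 were in Nose only. Promoter regions had been called at 118 of their 1133 genes at all. The Hox genes, which pattern the body axis and lie in CpG-rich clusters, had 10 of 98 (10.2%) at 9 genes, with 8 island-like windows and no region that held a start site. Fox genes had 9 of 96 (9.38%), zinc finger (Zfp) genes 28 of 710 (3.94%) and ribosomal protein genes 3 of 200 (1.5%). Against 3.94% over all promoter regions, the zinc finger share was at the background. These shares depend on how many regions were called in all 6, which cannot be members. Such regions were 7.33% for olfactory receptors, 17.3% for Hox, 43.75% for Fox, 64.9% for zinc finger and 66.5% for ribosomal protein genes. Over all promoter regions they were 56.1%.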

How the data were processed

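Open chromatin was measured by ATAC-seq in 6 libraries, 2 per label, with single-end 50 bp reads. Bowtie2, SAMtools and the mm10 build are listed in the submitters' processing notes, and the peak caller is not given in the sources used here. The deposited narrowPeak lists, 1 per library, hold for each peak a score, a fold enrichment (ratio) and the −log10 p-value and q-value as the authors' caller wrote them. Lists hold peaks only, so read depth is unknown and an uncalled region has no value. The paper given with the series does not describe this experiment.

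Here, peaks on the autosomes, X and Y were merged at 1 bp overlap with Python 3.11.15, numpy 2.4.6 and pandas 2.3.3, and figures were drawn with matplotlib 3.10.9. The strongest summit of a region was the one with the best rank by −log10 q within its own list. Start sites were those of protein-coding transcripts in the GENCODE M21 basic annotation (41438 sites of 21827 gene names), and sequence came from RefSeq GRCm38. Composition was read within 250 bp and motifs within 100 bp on either side of a summit. Merging, classes, distances and motif search were tested on simulated data. Shares have Wilson 95% intervals, and no hypothesis test was run. Regions named in the text were, per class and by their worst rank over the calling libraries, the first 4 (a pair of labels: 3) that were the only promoter region of their gene and the first 2 at a gene with a promoter region called in all libraries, together with every member at a gene of the 19 lists, the regions next to the 1 kb limit and the genes with most members. Not all of these are printed, and 1 member at a listed gene is not reported here. The start-site members and the members with a −log10 q of at least 5 were named after their values were seen. The members and lists were chosen with earlier results of these data known. List length, lowest −log10 q, call threshold, promoter distance, overlap, start sites and each library were varied in turn.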

Additional observations from a re-analysis of the deposited data

How the results depend on the processing

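No paired analysis was possible because nothing in the labels pairs libraries of different parts, and no hypothesis test was run. Membership of single regions and class sizes depended on the list ends, and an uncalled region has no value, so weaker openness cannot be told apart from none. With each list limited to its best 219779 peaks, Md only had 227 regions, Nose only 204 and Md and Nose 113, and 20.3% of members had an island-like window. With a common lowest −log10 q of 2.55 these classes had 213, 129 and 65, and 67.3% of members had a gene with a constantly open promoter. At a −log10 q of at least 5, Mx only had 85, Md only 114, Nose only 74, Mx and Nose 28 and Md and Nose 20. The share of genes with a constantly open promoter was then 55.3% and that of island-like windows 29.3%, and 23 of these 396 regions overlapped one of the 1244 members. Within 0.5 kb the classes had 78 (Mx only), 178 (Md only), 178 (Nose only), 67 (Mx and Md), 58 (Mx and Nose) and 93 regions (Md and Nose), with 57.7% and 18.9% for the 2 shares. Within 2 kb Mx only had 225 and Md only 518, with 74.3% and 13.0%. The share of genes with a constantly open promoter was 67.2% when a call had to cover at least 50% or 200 bp of the region, 73.6% with all protein-coding transcripts and 62.6% with the start furthest 5′ of each gene. The remaining class counts under these alternatives were within 1.5 times those reported, and the remaining shares within their intervals. Leaving out 1 library lets its label rest on the other, so counts rose throughout, to 183 to 1040 in Mx only, 428 to 1610 in Md only, 397 to 1647 in Nose only, 184 to 417 in Mx and Md, 149 to 312 in Mx and Nose and 338 to 1120 in Md and Nose. Each of the 6 libraries moved at least 4 of the 6 class counts by over 1.5 times. The last maximum came without Mx replicate 2, against 375 without Mx replicate 1. The 2 shares were then 73.2 to 75.5% and 15.3 to 18.4%.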
